A study of Mus musculus with 16 samples.

Results

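The genes described here encode the collagens and other proteins of the extracellular matrix of the heart, with the enzymes that process, crosslink and degrade them. A list of 52 such genes was followed, and 48 of them had at least 1 of the 25697 probes of the Illumina MouseRef-8 v2.0 BeadChip, an array of long oligonucleotides on beads. A gene was tested where a probe was detected (detection p at most 0.04) on 2 or more of a group's 4 arrays, which held for 41 of the 52, among 8831 named genes tested. No probe was listed for Col6a3, Col8a1, Fbn1 and Fn1. Of the other 7, Col5a2, Fbln5, Postn, Thbs1 and Vcan were detected on 0 of 16 arrays, and Lama4 and Fmod on 2 each.

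RNA came from the cardiac left ventricle of male mice of 12 weeks, 1 mouse per array and 4 per group. C57BL/6J mice carry their own Y chromosome, and C57.YA mice carry the Y chromosome of the A/J strain on a C57BL/6J background. Mice of each strain were either castrated (CX) or sham-operated at 3 to 4 weeks, before puberty. The comparisons ask what castration changes in each strain and whether the origin of the Y chromosome alters the level of a gene or its response to castration. Signals are quantile-normalised log2 intensities, and a difference is a log2 fold change. Levels of different probes cannot be compared with each other. A call is an adjusted p under 0.1 in a limma fit over the 16 arrays, with the Benjamini-Hochberg adjustment over the 12764 tested probes.

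The cardiac matrix is made mostly by fibroblasts. Fibrillar collagens form the cables that bear tension between muscle bundles, and small leucine-rich proteoglycans sit on the fibrils and regulate their assembly. Collagen IV, laminins, nidogen and perlecan form the basement membrane around each muscle cell and vessel. Matrix metalloproteinases cut these proteins and the tissue inhibitors of metalloproteinases (TIMPs) hold them back, while lysyl oxidases crosslink collagen and elastin.

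The CX C57BL/6J arrays stood apart from the rest. The mean log2 signal of 4 muscle genes of the atrium, Myl4, Myl7, Sln and Mybphl, was 9.88, 11.16, 9.54 and 9.23 in replicates 1 to 4 of this group, against 6.99 to 7.65 on the 12 other arrays. The label gives the left ventricle for all of them, and the sum of 8 ventricular muscle genes overlapped among the groups, with medians from 324860 to 331572. The 41 matrix genes also varied more within this group, with a median SD of 0.29 on the log2 scale, against 0.12 in each of the other 3 groups. Over all tested genes the median SD was 0.12 in CX C57BL/6J hearts. Replicate 2, with the highest atrial signal, had the lowest value of its group for 35 of the 41 genes, and replicate 4, with the lowest atrial signal, had the highest for 29. The median deviation of the 41 genes from their means over all arrays was -0.30 on replicate 2 and -0.07 on replicate 1. It was 0.10 on replicate 3 and 0.26 on replicate 4. Every comparison with this group carries these differences, and the part of atrial tissue in them was not tested directly. A fit with the atrial mean as a covariate is given where it ends or turns a call, and its slope rests mostly on the spread among these 4 arrays. In that fit castration in C57BL/6J called 9 of the 41 genes, all higher, against 0.691% of all genes. They were Col3a1, Col5a1, Col6a1, Col4a1, Col15a1, Lum, Mfap4, Mfap5 and Sparc, and the fitted differences of Col3a1 and Mfap4 were 1.93 and 2.96.

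Castration changed 6 of the 41 genes in C57BL/6J hearts, where 9.26% of all genes were called. Of these 3 rose and 3 fell, with 4.33% of all genes higher and 4.94% lower. In C57.YA hearts it changed 12 of the 41, where 20.5% of all genes were called. Of these 6 rose and 6 fell, with 885 of all 8831 genes higher and 922 (10.4%) lower. Col3a1, Lum and Mfap4 were higher and Timp1 was lower after castration in both strains, and 4.70% of all genes were called in both strains in the same direction. The median log2 difference of the 41 genes was 0.05 in C57BL/6J and 0.04 in C57.YA, against 0.00 in each for all genes. Sham hearts of the strains differed for 5 of the 41 genes (background 4.55%), 1 higher in C57BL/6J (2.63% of all genes) and 4 lower (1.93%). CX hearts differed for 6 (background 22.4%), 1 higher in C57BL/6J (11.6%) and 5 lower (10.8%). The response to castration differed between the strains for 3 genes, Eln, Tnxb and Timp3, with 2.88% of all genes called for this interaction. It was positive for Eln (1.26% of all genes) and negative for Tnxb and Timp3 (1.62%). Without CX C57BL/6J replicate 2, 11 of the 41 genes were called for castration in C57BL/6J, 8 of them higher, where 7.10% of all genes were called. The 5 gained were Col6a1, Col14a1, Col15a1, Mfap5 and Mmp2, all higher, and the 6 others were those called on all arrays. The strain calls in CX hearts fell from 6 to 3, 2 and 3 without CX C57.YA replicates 1, 3 and 4, respectively. The share of all genes fell as well, from 22.4% to 17.7%, 16.5% and 16.9%. The interaction calls fell from 3 to 1 without any of sham C57BL/6J replicates 1, 2 and 3, sham C57.YA replicates 1 and 2, and CX C57.YA replicates 1 and 2. In those fits 1.64% to 2.29% of all genes were called for it, against 2.88% on all arrays.

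**Figure D1:**
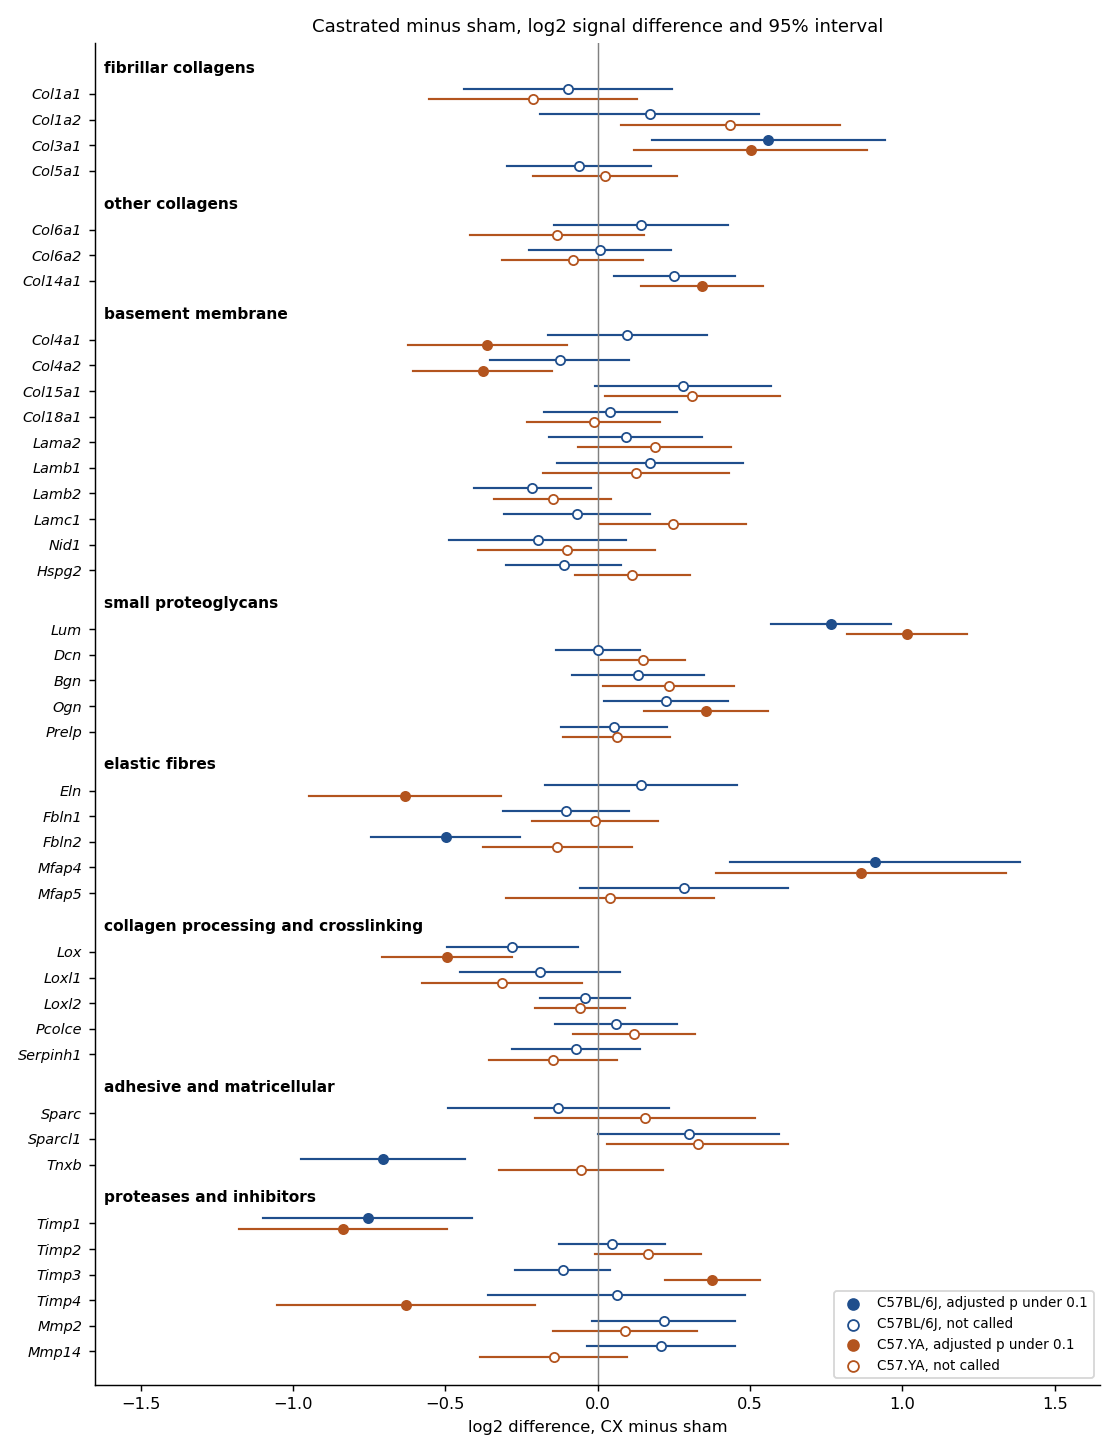
Log2 difference, CX minus sham, of the 41 tested genes by class (x axis), with the 95% interval of the fit as a line, in C57BL/6J (blue) and C57.YA (orange). Filled points passed an adjusted p of 0.1: 6 in C57BL/6J and 12 in C57.YA, with Lum, Mfap4 and Col3a1 to the right and Timp1 to the left in both strains.

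Among the fibrillar collagens, Col3a1 alone was called. This gene encodes the chain of type III collagen, a thin and compliant fibril. Its log2 signal was 9.28, 9.23, 9.33 and 9.08 in sham and 9.87, 9.25, 9.60 and 10.44 in CX C57BL/6J hearts. In C57.YA hearts it was 9.27, 9.61, 8.93 and 9.04 in sham and 9.57, 9.88, 9.55 and 9.86 in CX mice. In each strain 1 array overlapped the other group, CX replicate 2 in C57BL/6J and sham replicate 2 in C57.YA. The log2 difference was 0.56 ± 0.18 (SE) in C57BL/6J (adjusted p = 0.0819, limma) and 0.50 ± 0.18 (SE) in C57.YA (adjusted p = 0.0751). Both calls are near the threshold. The C57BL/6J call was lost without any 1 of the 4 sham arrays or of CX replicates 1 and 4, with differences of 0.34 to 0.59 (adjusted p = 0.124 to 0.212). The C57.YA call was lost without sham replicate 1, 3 or 4 or CX replicate 2 or 4, with differences of 0.41 to 0.52 (adjusted p = 0.112 to 0.175). A dimmer second probe passed the filter through C57.YA alone. It was detected on 0 of 4 arrays of each C57BL/6J group, 2 of 4 sham C57.YA and 4 of 4 CX C57.YA arrays. Its log2 difference in C57.YA was 0.47 (adjusted p = 0.0205). In C57BL/6J it was 0.02 (adjusted p = 0.95), but undetected signal cannot show whether the gene responded there. The same probe was called lower in CX C57BL/6J than in CX C57.YA hearts, at -0.74 (adjusted p = 0.00179). That size is set by undetected signal on the C57BL/6J side. The chains of type I collagen, the main load-bearing fibril of the heart, did not pass the test. Col1a1 differed by -0.10 and -0.21 after castration in C57BL/6J and C57.YA, and Col1a2 by 0.17 and 0.44 (adjusted p = 0.102 in C57.YA). Col5a1, whose type V collagen starts the fibrils of type I, differed by -0.06 and 0.02. None of the 4 genes was called between strains or for the interaction by its brightest probe. The median of the 4 was 0.05 for castration in C57BL/6J and 0.23 in C57.YA.

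**Figure D2:**
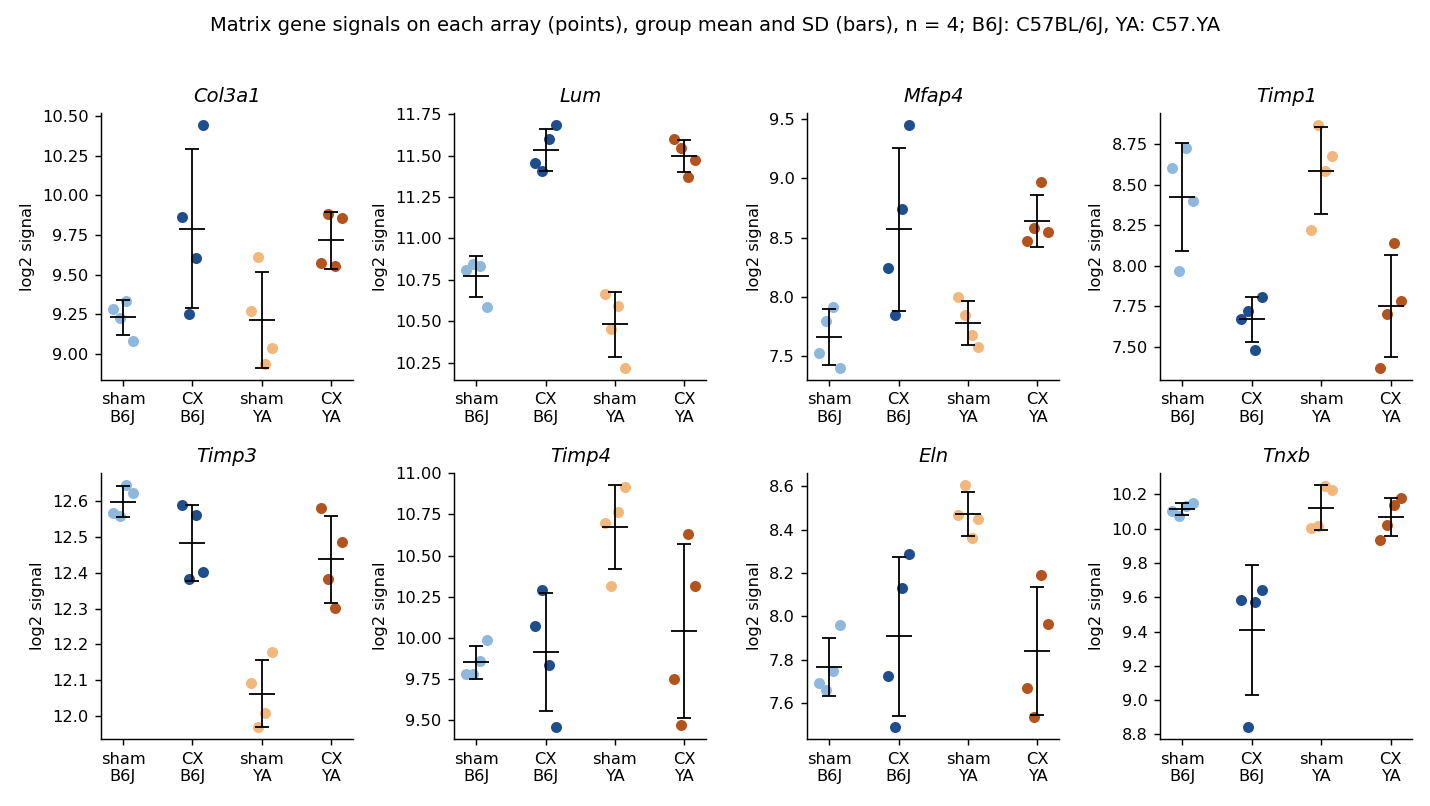
Log2 signal (y axis) of 8 matrix genes on each array, by group, with points for the 4 arrays and black bars for the mean and SD. Lum, Mfap4 and Col3a1 stand higher and Timp1 lower in both CX groups, whereas Timp3 is low and Timp4 and Eln are high in the sham C57.YA group, and Tnxb is low in the CX C57BL/6J group.

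The promoter of Col3a1 is printed because it belongs to the only fibrillar collagen called in both strains. RefSeq promoter windows (build GRCm38.p6, 250 bases before to 50 after the start of transcription) matched 35 of the 52 genes. Capitals mark the motifs searched on both strands: the TATA box TATAAA, the GC box GGGCGG, the CCAAT box CCAAT, the AP-1 element TGAGTNA, the androgen response element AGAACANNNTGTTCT and AGAACA, the hexamer at its start. Of 32851 windows of mouse genes, 13.6% held the TATA box, 35.7% the GC box, 37.4% the CCAAT box, 14.7% the AP-1 element, 0.00913% the full androgen element and 6233 windows the hexamer. The Col3a1 window, chr1:45311288-45311587 on the plus strand, held 1 TATA box, at -117 from the start, and none of the others.
Col3a1: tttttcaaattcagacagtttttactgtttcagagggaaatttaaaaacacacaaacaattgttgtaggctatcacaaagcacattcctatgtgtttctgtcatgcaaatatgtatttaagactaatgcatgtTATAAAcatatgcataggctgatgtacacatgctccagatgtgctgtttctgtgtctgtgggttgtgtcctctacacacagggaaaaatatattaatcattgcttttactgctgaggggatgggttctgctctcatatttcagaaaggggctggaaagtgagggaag

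Of the other collagens, Col14a1, which encodes a fibril-associated collagen, was called in C57.YA alone. It rose by 0.34 ± 0.10 (SE) (adjusted p = 0.0212), from a probe detected on 1 of 4 sham and 4 of 4 CX arrays. In C57BL/6J it differed by 0.25 (adjusted p = 0.137), with detection on 1 of 4 sham and 3 of 4 CX arrays. The probe thus passed the filter through the CX groups alone, where it was higher, and the sham levels are mostly undetected signal. The interaction of -0.09 was not called (adjusted p = 0.798). The type VI collagen genes Col6a1 and Col6a2, whose product forms beaded filaments near cells, were called in none of the 5 comparisons. Their log2 differences after castration lay between -0.13 and 0.14.

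In the basement membrane, castration lowered both chains of type IV collagen, the network-forming collagen, in C57.YA hearts. These were 2 of the 10 tested genes, where 20.5% of all genes were called. In C57BL/6J limma called 0 of the 10, where 9.26% of all genes were called, and 1 had an unadjusted p under 0.05. The interaction was also called for 0 of the 10 (2.88% of all genes), with 1 at an unadjusted p under 0.05. Col4a1 had log2 signals of 12.85, 12.84, 12.88 and 12.83 in sham and 12.52, 12.18, 12.62 and 12.64 in CX C57.YA hearts. The 4 sham values lay within 0.05 of each other and above all CX values, and the difference was -0.36 ± 0.12 (SE) (adjusted p = 0.0602). In C57BL/6J the signal was 12.24, 12.31, 12.31 and 12.48 in sham and 12.46, 11.96, 12.59 and 12.71 in CX hearts. Those groups overlapped and differed by 0.10 (adjusted p = 0.728). Sham C57BL/6J hearts lay below sham C57.YA hearts, with a log2 difference of -0.52 ± 0.12 (SE) (adjusted p = 0.0315), with no overlap. Col4a2 followed, with -0.38 after castration in C57.YA (adjusted p = 0.0266) and -0.30 between sham hearts (adjusted p = 0.163). The C57.YA call of Col4a1 was lost without sham replicate 1, 2 or 3 or CX replicate 1 or 2, with differences of -0.37 to -0.26 (highest adjusted p 0.197).

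Of the laminins, which link the basement membrane to cell receptors, Lamc1 and Lamb2 were called between CX hearts. Lamc1, the gamma chain common to most laminins of the heart, had log2 signals of 10.77, 10.46, 11.07 and 11.15 in CX C57BL/6J and 11.19, 11.29, 11.15 and 11.18 in CX C57.YA hearts. Replicate 2 of the C57BL/6J group was lowest and replicate 4 lay inside the C57.YA range. Sham hearts had 10.92, 10.74, 10.94 and 11.12 in C57BL/6J and 10.90, 10.92, 11.05 and 10.95 in C57.YA, which overlapped. Lamc1 was lower in CX C57BL/6J than in CX C57.YA hearts, with a log2 difference of -0.34 ± 0.11 (SE) (adjusted p = 0.0516), and so was Lamb2, with -0.26 (adjusted p = 0.0647), without overlap for Lamb2. The Lamc1 call was lost without CX C57BL/6J replicate 1 or 2 or CX C57.YA replicate 2, with differences of -0.31 to -0.20 (adjusted p = 0.111 to 0.182). That of Lamb2 was lost without CX C57BL/6J replicate 3 or 4 or CX C57.YA replicate 1, 3 or 4, at -0.26 to -0.22 (adjusted p = 0.109 to 0.160). With the atrial covariate both calls ended, at 0.53 for Lamc1 (adjusted p = 0.392) and -0.48 for Lamb2 (adjusted p = 0.487). Lama2, Lamb1, Nid1, Hspg2, Col15a1 and Col18a1 were called in none of the 5 comparisons. Col15a1, a collagen of muscle basement membranes, differed by 0.28 and 0.31 after castration in C57BL/6J and C57.YA (adjusted p = 0.268 and 0.144).

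Among the small proteoglycans, Lum had the lowest adjusted p of the 41 genes for castration in both strains. It encodes lumican, a keratan sulphate proteoglycan that binds collagen fibrils and governs their width. The log2 signal was 10.81, 10.85, 10.84 and 10.59 in sham and 11.46, 11.41, 11.60 and 11.68 in CX C57BL/6J hearts. In C57.YA hearts it was 10.66, 10.46, 10.59 and 10.22 in sham and 11.60, 11.54, 11.37 and 11.47 in CX mice. All 8 CX values exceeded all 8 sham values, and CX C57BL/6J replicate 2, low for most matrix genes, was within 0.05 of the next array here. Lum rose by 0.76 ± 0.09 (SE) in C57BL/6J (adjusted p = 5.26e-05) and by 1.01 ± 0.09 (SE) in C57.YA (adjusted p = 1.14e-06). The difference between these responses, -0.25, was not called (95% interval -0.53 to 0.03, adjusted p = 0.388). In a bulk sample, more cells that express a gene and more RNA per cell cannot be told apart. Fibroblast markers moved with this gene in part. Of 7 tested, Fap and Pdgfrl were called higher after castration in C57BL/6J and Fap, Gsn and Pdgfrl in C57.YA. In each strain 2 of the 7 had negative differences, and the median was 0.03 in C57BL/6J and 0.11 in C57.YA. Of all 8831 genes, 382 were called higher in C57BL/6J and 885 in C57.YA. The summed fibroblast signal was 4673 to 5653 in sham and 4332 to 5853 in CX C57BL/6J hearts, and 5189 to 5769 in sham and 5618 to 6051 in CX C57.YA hearts. Ddr2 did not pass the detection filter, and the part of fibroblast number in these results was not tested.

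Ogn, which encodes osteoglycin (mimecan), was called in C57.YA, with a rise of 0.35 ± 0.10 (SE) (adjusted p = 0.0196), and differed by 0.22 in C57BL/6J (adjusted p = 0.198). All 3 Ogn probes were called in C57.YA and none in C57BL/6J, the largest rise being 0.73 (adjusted p = 1.99e-04). This last probe was also lower in CX C57BL/6J than in CX C57.YA hearts, with a log2 difference of -0.34 (adjusted p = 0.0424). Dcn and Bgn, which encode the abundant collagen-binding proteoglycans decorin and biglycan, were not called. Dcn differed by 0.00 in C57BL/6J and 0.15 in C57.YA, and Bgn by 0.13 and 0.23. Prelp, a proteoglycan that anchors basement membranes, differed by 0.05 and 0.06. All 5 tested genes of the class had positive differences in each strain, with medians of 0.13 and 0.23, against 50.2% and 49.6% of all genes with a positive difference. No small proteoglycan was called between strains or for the interaction by its brightest probe.

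Of the elastic fibre genes, Mfap4 and Eln moved in opposite directions in C57.YA hearts. Mfap4, a microfibril-associated protein that binds elastin and collagen, had log2 signals of 7.52, 7.79, 7.92 and 7.40 in sham and 8.24, 7.85, 8.75 and 9.45 in CX C57BL/6J hearts. In C57.YA hearts the values were 8.002, 7.85, 7.68 and 7.58 in sham and 8.47, 8.58, 8.97 and 8.55 in CX mice. The C57.YA groups did not overlap, whereas CX C57BL/6J replicate 2 fell below the highest sham value. Mfap4 rose by 0.91 ± 0.23 (SE) in C57BL/6J (adjusted p = 0.024) and 0.86 ± 0.23 (SE) in C57.YA (adjusted p = 0.0155). Its difference in C57BL/6J without CX replicate 4, the highest array, was 0.62 (adjusted p = 0.0443).

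Eln, the gene of elastin itself, was called in C57.YA only, and in the other direction. Its log2 signal was 8.47, 8.61, 8.36 and 8.45 in sham and 7.67, 7.53, 8.19 and 7.96 in CX C57.YA hearts. In C57BL/6J hearts it was 7.69, 7.66, 7.75 and 7.96 in sham and 7.72, 7.49, 8.13 and 8.29 in CX mice. All sham C57.YA values lay above all 12 others. Eln fell by 0.63 ± 0.15 (SE) with castration in C57.YA (adjusted p = 0.00833), while the C57BL/6J groups differed by 0.14 (adjusted p = 0.661). The difference between the responses was 0.77 ± 0.21 (SE) (adjusted p = 0.0786), and between the sham groups it was -0.71 ± 0.15 (SE) (adjusted p = 0.0145). The interaction call was lost in 9 of the 16 fits that left out an array, at 0.65 to 0.78 (adjusted p = 0.113 to 0.154). These were the fits without sham C57BL/6J replicates 1, 2 and 3, CX C57BL/6J replicates 3 and 4, sham C57.YA replicates 1 and 2, and CX C57.YA replicates 1 and 2. Smooth muscle markers, of cells that make elastin in vessel walls, were lower after castration for 2 of 6 tested genes in C57BL/6J (Myh11, Mylk) and 4 of 6 in C57.YA (also Acta2, Tagln). Their summed signal ran from 44080 to 52059 in sham and 35049 to 45592 in CX C57.YA hearts, and from 42376 to 51903 and 36831 to 46698 in C57BL/6J. Cnn1 did not pass the detection filter. Markers of the mesothelium, the outer lining of the heart, moved with Eln: all 3 tested (Upk3b, Wt1, Upk1b) were called lower after castration in C57.YA, with a median of -1.16, and 0 of 3 in C57BL/6J, with a median of 0.15 and 1 at an unadjusted p under 0.05. Between sham hearts their median was -0.62, with 0 of 3 called in limma and 2 at an unadjusted p under 0.05, and the interaction was called for Wt1. Their summed signal was 890 to 1094 in sham and 625 to 686 in CX C57.YA hearts, against 643 to 947 and 652 to 1088 in C57BL/6J, and Msln and Krt19 did not pass the filter. The sham C57.YA group was also highest in mean for Timp4, Mmp14 and Col4a1, and the part of vessel muscle or mesothelium in these values and those of Eln was not tested.

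The fibulins, glycoproteins that join elastic fibres and basement membranes, were lower in CX C57BL/6J than in CX C57.YA hearts. Fbln2 had log2 signals of 10.98, 10.95, 10.92 and 10.88 in sham and 10.47, 9.93, 10.56 and 10.77 in CX C57BL/6J hearts. The corresponding C57.YA values were 10.89, 10.87, 10.90 and 10.91 in sham and 10.77, 10.63, 10.85 and 10.80 in CX mice. All CX C57BL/6J values lay below every sham value, with replicate 2 lowest. The difference was -0.50 ± 0.12 (SE) for castration in C57BL/6J (adjusted p = 0.0166), or -0.33 without replicate 2 (adjusted p = 0.0178), and -0.33 ± 0.12 (SE) between CX hearts (adjusted p = 0.0616). In C57.YA it was -0.13 (adjusted p = 0.491), and the interaction, -0.37, was not called (adjusted p = 0.302). Of the 2 other Fbln2 probes, 1 was called for castration in C57BL/6J (-0.36, adjusted p = 0.0901) and the other was not (-0.20, adjusted p = 0.345). Neither was called between CX hearts, at -0.09 and -0.07. Fbln1 had log2 signals of 12.03, 11.76, 12.21 and 12.13 in CX C57BL/6J and 12.27, 12.31, 12.53 and 12.18 in CX C57.YA hearts. The groups overlapped by C57BL/6J replicate 3, and all 3 Fbln1 probes were called lower in C57BL/6J. The brightest probe differed by -0.29 ± 0.10 (SE) (adjusted p = 0.0529). In sham hearts its signals were 12.06, 12.04, 12.16 and 12.29 in C57BL/6J and 12.47, 12.22, 12.40 and 12.24 in C57.YA, a difference of -0.19 that was not called (adjusted p = 0.329). With the atrial covariate the Fbln2 values became 0.60 for castration in C57BL/6J and 0.70 between CX hearts, and that of Fbln1 0.30, none of them called. The strain call of Fbln2 in CX hearts was lost without CX C57BL/6J replicate 2 or CX C57.YA replicate 1, 3 or 4, with differences of -0.33 to -0.16 (adjusted p = 0.107 to 0.180). That of Fbln1 was lost without CX C57BL/6J replicate 2 or CX C57.YA replicate 3, at -0.22 to -0.20 (adjusted p = 0.172 to 0.186). Mfap5, a further microfibril protein, was called in none of the 5 comparisons.

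Of the 5 genes of collagen processing and crosslinking, Lox was called lower after castration in C57.YA hearts. It encodes lysyl oxidase, the enzyme that starts the crosslinks of collagen and elastin. In C57.YA hearts its log2 signal was 7.60, 7.67, 7.76 and 7.61 in sham and 7.28, 7.01, 7.25 and 7.13 in CX mice. In C57BL/6J hearts it was 7.37, 7.29, 7.39 and 7.48 in sham and 6.999, 6.78, 7.27 and 7.37 in CX mice. The groups were apart in C57.YA and overlapped in C57BL/6J by CX replicate 4. Lox fell by 0.49 ± 0.10 (SE) in C57.YA (adjusted p = 0.00312) and the difference in C57BL/6J was -0.28 ± 0.10 (SE) (adjusted p = 0.124). The interaction of 0.21 was not called (adjusted p = 0.518). Its relative Loxl1, which acts on elastin, differed by -0.19 in C57BL/6J and -0.31 in C57.YA (adjusted p = 0.441 and 0.105). Loxl2 and Serpinh1, the collagen chaperone HSP47, were called in none of the 5 comparisons.

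Pcolce, which enhances the cleavage of the collagen C-propeptide, was higher in CX C57BL/6J than in CX C57.YA hearts. Its log2 signals in CX hearts were 9.07, 9.10, 9.05 and 9.25 in C57BL/6J and 8.92, 8.79, 8.92 and 8.87 in C57.YA. Those in sham hearts were 9.04, 9.02, 8.90 and 9.26 and 8.87, 9.004, 8.64 and 8.51, respectively. The strains were apart in CX hearts and overlapped by 1 array in sham hearts. The difference was 0.24 ± 0.10 (SE) in CX hearts (adjusted p = 0.0921) and 0.30 ± 0.10 (SE) in sham hearts (adjusted p = 0.112). The CX call was lost in 10 of the 16 fits without 1 array, those without sham C57BL/6J replicate 1 or 2 or any of the 8 CX arrays, at 0.20 to 0.26 (adjusted p = 0.106 to 0.203), and with the atrial covariate (0.32, adjusted p = 0.686).

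Tnxb, which encodes tenascin-X, a spacer between collagen fibrils whose loss causes a form of Ehlers-Danlos syndrome in humans, was lower in CX C57BL/6J hearts. The log2 signal was 10.10, 10.07, 10.13 and 10.15 in sham and 9.59, 8.84, 9.57 and 9.64 in CX C57BL/6J hearts. In C57.YA hearts it was 10.004, 10.01, 10.25 and 10.22 in sham and 9.93, 10.02, 10.14 and 10.18 in CX mice. The 4 CX C57BL/6J values lay below the other 12, with replicate 2 far below its own group. The log2 difference was -0.70 ± 0.13 (SE) for castration in C57BL/6J (adjusted p = 0.00259) and -0.06 in C57.YA (adjusted p = 0.819). Between CX hearts it was -0.66 ± 0.13 (SE) (adjusted p = 0.00286), and the interaction was -0.65 ± 0.18 (SE) (adjusted p = 0.0836). All 3 tested Tnxb probes were called in each of these comparisons except castration in C57.YA. Without replicate 2 the castration difference in C57BL/6J was -0.51 (adjusted p = 8.59e-04). The interaction call was lost in 10 of the 16 fits, those without any of the 4 sham C57BL/6J or 4 CX C57.YA arrays or without sham C57.YA replicate 1 or 2, at -0.69 to -0.61 (adjusted p = 0.102 to 0.163). With the atrial covariate the castration difference in C57BL/6J was 0.50 (adjusted p = 0.387), that between CX hearts 0.47 (adjusted p = 0.410) and the interaction 0.48 (adjusted p = 0.490). Sparc and Sparcl1, which encode a collagen-binding matricellular protein and its homologue, were called in none of the 5 comparisons.

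The TIMPs moved apart from each other. Timp1, the inducible inhibitor, had log2 signals of 8.61, 7.97, 8.73 and 8.40 in sham and 7.67, 7.72, 7.48 and 7.81 in CX C57BL/6J hearts. In C57.YA hearts the signals were 8.22, 8.87, 8.59 and 8.67 in sham and 7.37, 7.71, 8.14 and 7.78 in CX mice. In each strain every CX value lay below every sham value, though C57.YA CX replicate 3 was within 0.10 of the lowest sham array. Timp1 fell by 0.76 ± 0.16 (SE) in C57BL/6J (adjusted p = 0.00952) and 0.84 ± 0.16 (SE) in C57.YA (adjusted p = 0.00197), and its second probe was also called in both. With the atrial covariate the C57BL/6J value was -0.65 (adjusted p = 0.652).

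Timp3, the inhibitor that binds to the matrix, went the other way in C57.YA. Its log2 signal was 12.09, 11.97, 12.01 and 12.18 in sham and 12.58, 12.38, 12.30 and 12.49 in CX C57.YA hearts. In C57BL/6J hearts the signal was 12.57, 12.56, 12.65 and 12.62 in sham and 12.59, 12.38, 12.56 and 12.40 in CX mice. The 4 sham C57.YA values were the lowest of the 16. Timp3 rose by 0.38 ± 0.07 (SE) with castration in C57.YA (adjusted p = 0.00223), while the C57BL/6J difference was -0.12 (adjusted p = 0.424). Sham C57BL/6J hearts exceeded sham C57.YA hearts by 0.54 ± 0.07 (SE) (adjusted p = 3.14e-04), and the interaction was -0.49 ± 0.11 (SE) (adjusted p = 0.0225). A dimmer second probe was called for castration in C57.YA (0.62, adjusted p = 0.00132) but neither between sham hearts (0.27) nor for the interaction (-0.55, adjusted p = 0.112). Leaving out any 1 array kept the Timp3 interaction call, with differences from -0.54 to -0.44. It was lost with median scaling (-0.47, adjusted p = 0.178) and with the atrial covariate (-0.47, adjusted p = 0.517), and median scaling also ended the interaction calls of Eln (0.72, adjusted p = 0.108) and Tnxb (-0.67, adjusted p = 0.153).

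Timp4, an inhibitor with high levels in the heart, was highest in sham C57.YA hearts. The log2 signals were 10.70, 10.31, 10.76 and 10.92 in sham and 9.75, 9.47, 10.63 and 10.32 in CX C57.YA hearts. In C57BL/6J hearts they were 9.78, 9.78, 9.86 and 9.99 in sham and 10.07, 10.29, 9.84 and 9.46 in CX mice. CX C57.YA replicates 3 and 4 lay within the sham C57.YA range, and the spread in that CX group was the widest of the 41 genes. The log2 difference was -0.63 ± 0.20 (SE) for castration in C57.YA (adjusted p = 0.0447), while C57BL/6J hearts differed by 0.06 (adjusted p = 0.904). The sham groups differed by -0.82 ± 0.20 (SE) without overlap (adjusted p = 0.0354), and the interaction of 0.69 was not called (adjusted p = 0.253). The castration call in C57.YA was lost without CX replicate 1 or 2, at -0.53 and -0.44 (adjusted p = 0.134 to 0.157). The sham call was lost without sham C57BL/6J replicate 2 or sham C57.YA replicate 3 or 4, at -0.80 to -0.74 (adjusted p = 0.102 to 0.114). Timp2 was called in none of the 5 comparisons.

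The promoters of these 3 inhibitors are printed because Timp1, Timp3 and Timp4 belong to 1 family and differed in response, with the same motifs in capitals. The Timp1 window, chrX:20869916-20870215 on the plus strand, held a CCAAT box at -190, a GC box at -8 and an AP-1 element at 27 from the start. The Timp3 window, chr10:86300162-86300461 on the plus strand, held 2 GC boxes, at -15 and 14. The Timp4 window, chr6:115252156-115252455 on the minus strand, held none of the 6 motifs.
Timp1: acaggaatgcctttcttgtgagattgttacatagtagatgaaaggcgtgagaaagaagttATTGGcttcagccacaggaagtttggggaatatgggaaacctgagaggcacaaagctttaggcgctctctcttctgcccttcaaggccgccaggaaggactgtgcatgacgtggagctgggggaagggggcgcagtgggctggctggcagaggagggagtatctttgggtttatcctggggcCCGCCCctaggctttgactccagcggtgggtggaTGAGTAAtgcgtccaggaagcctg
Timp3: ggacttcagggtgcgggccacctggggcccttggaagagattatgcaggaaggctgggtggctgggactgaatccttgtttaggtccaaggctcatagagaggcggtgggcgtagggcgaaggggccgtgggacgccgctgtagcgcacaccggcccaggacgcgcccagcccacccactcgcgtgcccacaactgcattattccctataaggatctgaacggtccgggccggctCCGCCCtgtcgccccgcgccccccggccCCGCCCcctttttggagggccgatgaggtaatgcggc
Timp4: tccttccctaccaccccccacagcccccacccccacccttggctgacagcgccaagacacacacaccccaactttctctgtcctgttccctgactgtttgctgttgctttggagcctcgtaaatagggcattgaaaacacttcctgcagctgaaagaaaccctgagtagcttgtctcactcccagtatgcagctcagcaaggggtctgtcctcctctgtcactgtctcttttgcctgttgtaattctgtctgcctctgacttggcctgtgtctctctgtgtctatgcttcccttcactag

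Of the proteases, Mmp14, the membrane-anchored collagenase that activates MMP-2, was lower in sham C57BL/6J than in sham C57.YA hearts. The log2 signals were 9.30, 9.06, 9.21 and 9.37 and 9.61, 9.69, 9.81 and 9.90, respectively, and did not overlap. The difference was -0.52 ± 0.12 (SE) (adjusted p = 0.0181). In CX hearts the signals were 9.26, 9.22, 9.49 and 9.78 in C57BL/6J and 9.49, 9.45, 9.86 and 9.64 in C57.YA, which overlapped, with a difference of -0.17 (adjusted p = 0.341). Castration gave no call in either strain, at 0.21 and -0.14. Mmp2, the gelatinase made by fibroblasts, was called in none of the 5 comparisons, and differed by 0.22 after castration in C57BL/6J (adjusted p = 0.298).

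**Figure D3:**
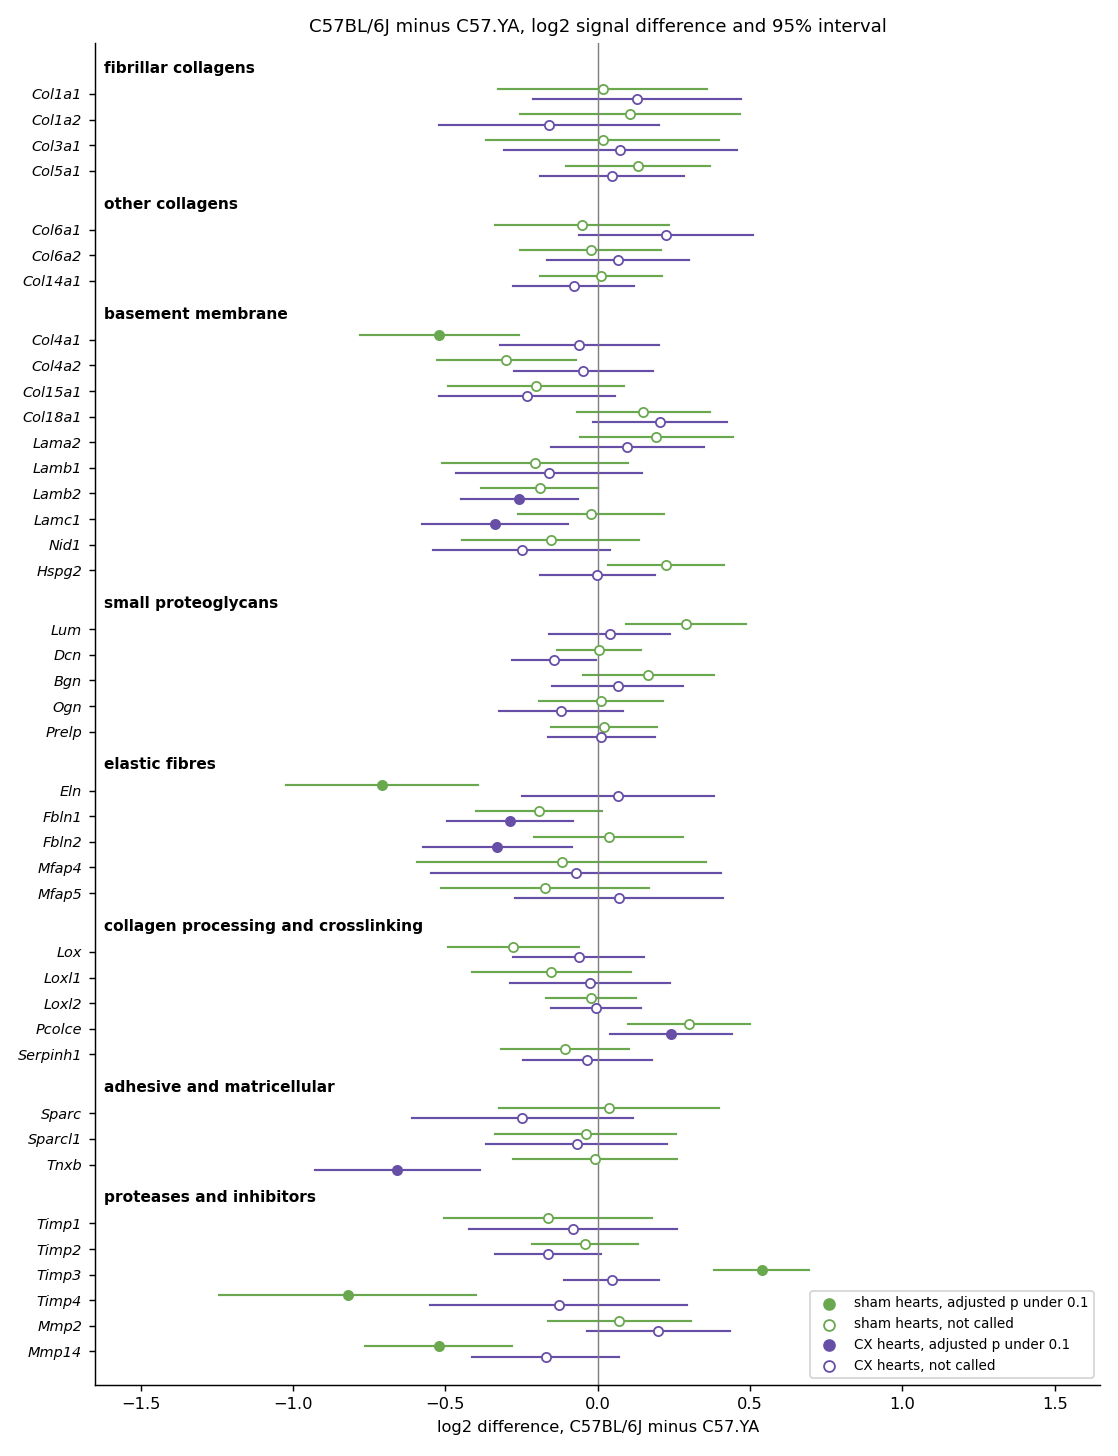
Log2 difference, C57BL/6J minus C57.YA, of the 41 tested genes by class (x axis), with the 95% interval of the fit as a line, in sham (green) and CX hearts (purple). Filled points passed an adjusted p of 0.1: Timp3 above 0 and Timp4, Eln, Mmp14 and Col4a1 below 0 in sham hearts, and Pcolce above 0 and Tnxb, Lamc1, Fbln2, Fbln1 and Lamb2 below 0 in CX hearts.

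Between the strains, a change of the difference from sham to CX hearts was tested only by the interaction. The 4 arrays of each group did not overlap for 8 of the 41 genes in sham hearts (9.82% of all genes) and for 3 in CX hearts (20.6%). For castration the groups were apart for 4 genes in C57BL/6J (12.6%) and 13 in C57.YA (20.7%). The median strain difference of the 41 genes was -0.02 in sham and -0.06 in CX hearts, against 0.01 in each for all genes. In CX hearts 5 of the 6 calls were lower in C57BL/6J. With the atrial covariate limma called 0 of the 41 genes between CX hearts, where 0 of all 8831 genes were called. At an unadjusted p under 0.05 that fit gave 26 of the 41 genes, all 26 higher in C57BL/6J, against 11.1% of all genes. Without sham C57.YA replicates 3 and 4, Timp3 and Eln were the 2 genes called between sham hearts, where 1.49% of all genes were called. Without replicates 1 and 2, 9 of the 41 genes were called, where 15.5% of all genes were. Some marker genes of other cells were called lower in CX C57BL/6J than in CX C57.YA hearts, as were 10.8% of all genes. They were Mrc1, Lyz2 and C1qb of 6 tested for macrophages, Myh11 and Mylk of 6 for smooth muscle, and Pdgfrb and Rgs5 of 5 for pericytes. Of the smooth muscle and pericyte genes, 2 and 1 had positive differences. Of 7 endothelial genes, 1 was called in each direction (Cdh5 and Esam). All 3 mesothelial genes had positive differences, with Wt1 called higher. The part of these cells in the strain differences was not tested.

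A wider list of 115 matrix genes, 65 of them tested, gives the surroundings of these results. Castration called 13 of the 65 in C57BL/6J and 19 in C57.YA, against the backgrounds of 9.26% and 20.5% above. Between sham hearts 1 of the 65 was called higher in C57BL/6J and 1 lower (2.63% and 1.93% of all genes). Between CX hearts 4 were called higher and 11 lower (11.6% and 10.8%). With the atrial covariate all 13 calls in C57BL/6J ended, among them Mmp3 at -0.88 (adjusted p = 0.582), P4ha1 at -0.34, P4ha2 at -0.35, Mgp at 0.79, Ecm1 at -0.18, Ccn5 at 0.19 and Lamb3 at -0.11. The interaction calls of Pcolce2 (0.02) and Podn (-0.35) ended as well. Among the matrix proteases Mmp3, or stromelysin-1, which cleaves proteoglycans and activates other proteases, fell most. Its log2 signal was 8.90, 8.75, 9.08 and 8.90 in sham and 7.62, 7.45, 7.30 and 8.003 in CX C57BL/6J hearts. In C57.YA hearts it was 9.27, 9.61, 9.42 and 9.60 in sham and 7.65, 7.78, 8.54 and 7.23 in CX mice. All 8 CX values lay below all 8 sham values. Mmp3 fell by 1.32 ± 0.19 (SE) in C57BL/6J (adjusted p = 3.11e-04) and 1.67 ± 0.19 (SE) in C57.YA (adjusted p = 1.19e-05). Mmp13, a collagenase, was higher by 0.44 and 0.43, from a probe detected on 2 of 4 arrays of each sham group and on all CX arrays.

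Among 12 tested genes of collagen biosynthesis, the alpha subunits of prolyl 4-hydroxylase, which makes collagen helices stable, fell in both strains. P4ha1 fell by 0.31 ± 0.08 (SE) in C57BL/6J and 0.54 ± 0.08 (SE) in C57.YA (adjusted p = 0.0328 and 1.88e-04). P4ha2 fell by 0.44 ± 0.08 (SE) and 0.45 ± 0.08 (SE) (adjusted p = 0.00175 and 6.08e-04). Crtap, a partner of prolyl 3-hydroxylase, rose by 0.34 in C57BL/6J (adjusted p = 0.00377), and Pcolce2, a second enhancer of procollagen cleavage, by 0.58 in C57.YA (adjusted p = 4.96e-05). The response of Pcolce2 differed between strains by -0.38 (adjusted p = 0.0924), a call that held only without sham C57BL/6J replicate 4, CX C57BL/6J replicate 4 or sham C57.YA replicate 4 among the 16 fits that left out an array (adjusted p = 0.109 to 0.183 in the other 13). The call of P4ha1 in C57BL/6J was lost without sham replicate 4 or CX replicate 3 (adjusted p = 0.105 and 0.115).

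Of 22 other matrix proteins, Mgp, the matrix Gla protein that inhibits calcification, rose by 0.34 in C57BL/6J and 0.68 in C57.YA (adjusted p = 0.0204 and 1.82e-05). Ecm1 fell by 0.73 in C57BL/6J and 0.56 in C57.YA (adjusted p = 3.12e-05 and 2.42e-04). Ccn5, a matricellular protein, fell by 0.61 and 0.37 (adjusted p = 0.014 and 0.0831), and its C57.YA call was lost without sham replicate 2 or 3 or CX replicate 1, 2 or 4 (adjusted p = 0.121 to 0.193). Nid2, the second nidogen, rose by 0.53 in C57.YA (adjusted p = 0.00145), while C57BL/6J hearts differed by 0.10 (adjusted p = 0.66). Lamb3, a laminin chain, rose by 0.59 in C57BL/6J and 0.38 in C57.YA (adjusted p = 0.00715 and 0.0439), the latter call being lost without sham replicate 1 or 2 (adjusted p = 0.120 to 0.143). Podn, a small proteoglycan outside the list of 52, had a response that differed by -0.60 (adjusted p = 0.0434), from a probe detected on 2 of 4 CX C57BL/6J arrays. Of 15 matrix receptors, 5 were called between CX hearts, where 22.4% of all genes were called. Between sham hearts limma called 0 of the 15, where 4.55% of all genes were called and 3 receptors had an unadjusted p under 0.05. The integrin subunit Itga6, a laminin receptor, was lower in CX C57BL/6J hearts (-0.83, adjusted p = 0.0024), and Itgb1, its partner in many integrins, was higher (0.53, adjusted p = 0.00612). All 5 receptor calls ended with the atrial covariate, at -0.02 for Itga6 (adjusted p = 0.991) and 0.28 for Itgb1 (adjusted p = 0.794).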

How the data were processed

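RNA of 16 left ventricles was hybridised by the study to 2 Illumina MouseRef-8 v2.0 BeadChips, 1 mouse per array, with arrays placed at random. The authors deposited the intensity of each of the 25697 probes as read by BeadStudio, without normalisation, and beside it a detection p-value drawn from the array's negative control beads. A second deposited table holds log2 values that were quantile-normalised in R with the affy package. Its row names disagree with those of the first table, so rows were matched by value, and it served as an alternative. A further 32 columns of values were left unused.

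Intensities were taken to log2 and quantile-normalised, and probes detected (p at most 0.04) on 2 or more of a group's 4 arrays were kept. Group means over the 16 arrays were fitted in limma 3.58.1 (R 4.3.3), two-sided, and the Benjamini-Hochberg adjustment ran over all 12764 probes. The script was tested on simulated data. Probes were named from the platform annotation, and each gene was represented by its brightest tested probe. Values per array are given for genes called in both strains or for the interaction and for the 4 largest calls in each direction of each comparison. The other genes are given by their differences or by counts. Only called genes of the wider list are named, at most 2 in each direction for each class and comparison, and not every called gene is named. The members and the lists were chosen with earlier results of these data known.

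Alternatives were other background corrections, scalings, filters, variances, thresholds and array weights, a replicate block, an atrial covariate, fits of the compared groups alone, and fits without single arrays. The chip of each array was not given in the sources used here, so that a fit with the BeadChip as a block was not run. Each group holds 4 arrays, and their number limits the precision of every value.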

Additional observations from a re-analysis of the deposited data

Results flagged for a closer look

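Of 60 sets of 4 arrays of 1 group, 2 held an array far from the other 3, where chance gives about 1 in 20. For Lum, sham C57BL/6J replicate 4 lay low, its gap to the next array being 0.862 of the range of the group, above Dixon's 95% critical value. For Tnxb, CX C57BL/6J replicate 2 lay low, with a gap of 0.916 of the range, and this array also had the highest atrial signal of the 16. The part of that signal in its Tnxb value was not tested.

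The response to castration differed between the strains for 3 genes by the interaction of the limma fit, C57BL/6J minus C57.YA. The log2 difference of the responses was 0.77 for Eln, -0.65 for Tnxb and -0.49 for Timp3.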

How the results depend on the processing

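Of 2160 recomputed log2 differences of the named genes, 2022 kept their side of the threshold, 107 lost the call, 24 gained one and 7 calls turned in sign. Differences without a call were counted among the 2022 whatever their sign. Some of these changed sign, such as Timp4 for castration in C57BL/6J, which ran from -0.71 to 0.21. The number of genes called after castration in C57.YA, 12 of 41, stayed within 1.5 times of this under every alternative run. The 7 turned with the atrial covariate: Tnxb (0.50) and Fbln2 (0.60) for castration in C57BL/6J, Tnxb (0.47), Fbln2 (0.70), Lamc1 (0.53) and Fbln1 (0.30) between CX hearts, and the Tnxb interaction (0.48). With it the interaction calls were 8, all positive, where 0.453% of all genes were called. These were Col5a1, Col6a1, Col4a1, Col4a2, Eln, Mfap4, Mfap5 and Loxl1. The calls between CX hearts were 0 in limma, with 26 genes at an unadjusted p under 0.05, against 11.1% of all genes. The 3 interaction calls became 1 with the neqc background correction, with each probe's ordinary variance and at an adjusted p under 0.05. Of all genes 2.28%, 2.11% and 1.48% were called there, respectively. They became 0 with median scaling and 0 without sham C57.YA replicates 1 and 2, where 106 and 103 of all 8831 genes were called. In limma 5 and 8 of the 41 genes had an unadjusted p under 0.05 there, against 9.64% and 11.1% of all genes. The 6 calls between CX hearts became 2 with median scaling and 1 at an adjusted p under 0.05. Of all 8831 genes 1344 and 1325 were called there, respectively, against 1976 in the main fit. The 5 calls between sham hearts became 9 without sham C57.YA replicates 1 and 2 (15.5% of all genes) and 2 without replicates 3 and 4 (1.49%). Counted over 55 probes, calls were 10 for castration in C57BL/6J, 12 between CX hearts and 5 for the interaction. Genes with several probes weigh more in these counts, and the shares of all genes given here are not their background. Leaving out each array in turn gave 5 to 11 calls for castration in C57BL/6J (5.80% to 10.2% of all genes) and 9 to 17 in C57.YA (15.1% to 21.8%). It gave 4 to 7 between sham hearts (2.33% to 6.99%) and 2 to 6 between CX hearts (16.4% to 23.4%). For the interaction it gave 1 to 4 (1.64% to 4.97%). The cause of these changes was not tested. Equal replicate numbers do not pair the mice, as their correlations ran from -0.03 to 0.20. With the replicate block 8, 15, 5, 5 and 3 genes were called in the 5 comparisons, in the order above. The shares of all genes called with it were 10.7%, 22.1%, 5.64%, 23.9% and 3.32%.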
